A study of Mus musculus with 106 samples.

Results

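The 9 genes described here encode transcription factors that mark macrophages: Mitf, Tfec and Tfeb of the MiT/TFE family, the nuclear receptors Nr1h3 and Pparg, the bZIP factor Maf, the bHLH repressors Bhlhe40 and Bhlhe41, and the zinc finger factor Zeb2. They were chosen by name from 21938 protein-coding genes, with earlier results of these data known, and the rule used no measured value. Each gene was read at its promoter, 1 kb to either side of any annotated transcription start site in GRCm38, and over its locus, the gene body with 50 kb on each side. Both were read in 70 lists of chromatin immunoprecipitation sequencing (ChIP-seq) peaks, 35 for H3K27ac and 35 for H3K4me3.

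Identity factors are the regulators that a cell keeps on once it has taken its fate, and they hold the genes of that fate open. MiT/TFE proteins bind E-box sequences and drive lysosome genes, whereas the LXR receptor encoded by Nr1h3 and the PPAR receptor encoded by Pparg sense sterols and fatty acids and turn on genes of cholesterol export and lipid storage. Acetylation of histone H3 at lysine 27 (H3K27ac) is found on active promoters and enhancers, and trimethylation at lysine 4 (H3K4me3) on promoters.

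The lists came from C57BL/6J mice, either control or made diabetic with streptozotocin, a toxin of the insulin-producing beta cell. Mice of both groups were 12 to 14 weeks old when they were assigned at random to control or diabetes. Diabetic mice had 5 daily injections of 42 to 45 mg/kg and were used 6 weeks later if blood glucose was above 13.9 mmol/L. From each kind of mouse there were haematopoietic stem cells (HSCs), bone marrow-derived macrophages (BMDMs) that were not stimulated, and BMDMs given lipopolysaccharide (LPS, 100 ng/mL) with interferon-γ (IFN-γ, 10 ng/mL) for 16 h. The BMDMs had differentiated for 7 days in medium with 20% L929 conditioned medium and 5 mmol/L glucose, so all BMDMs, also those of diabetic mice, had left the diabetic animal before they were measured. The HSCs were bone marrow depleted of cells carrying CD3, CD4, B220, Ter119 or Gr1 and not sorted for a stem cell marker, so they can hold progenitors of several lineages. Each group had 6 lists per mark, except unstimulated BMDMs of diabetic mice with 5 (replicates 1, 2, 4, 5 and 6). The labels do not say which animal gave which sample, so the p-values measure the spread between these samples.

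Lists held 13730 to 277213 peaks (median 110154.5) and covered 5.622 to 140.4 Mb, and the read depth behind them was unknown. Promoters and regions were therefore compared as ranks within a list, and loci by their coverage relative to that of the whole list. As a check on the labels, the 50 H3K27ac regions that rose most and the 50 that fell most with LPS+IFN-γ in diabetic BMDMs were read in the control BMDMs, as the mean score of the first minus that of the second. Control LPS+IFN-γ libraries lay between -0.18 and 0.80, except for replicate 5 at -1.44. Control unstimulated libraries lay between -1.60 and -0.90, except for replicates 5 and 6 at -0.027 and -0.20. The H3K27ac libraries labelled control LPS+IFN-γ replicate 5 and control unstimulated replicates 5 and 6 thus went against their stimulation labels, and results that rest on them are given with and without these 3. Since they were set apart by their stimulation response, stimulation values in control mice without them describe the remaining libraries and are no independent test. As a check on cell type, the H3K27ac promoter signal of 7 of 10 stem and progenitor markers (Erg, Flt3, Gata2 and Kit among them) was higher in HSCs than in unstimulated BMDMs, and that of 4 of 9 tested macrophage markers (Cd14, Cd68, Csf1r and Mertk) was higher in BMDMs.

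The sequences on which the comparisons turn are given first. Those of promoters are from RefSeq on GRCm38.p6 (250 bases before and 50 after a start). Those of distal regions are 200-base windows from the same genome. Each window is centred on the median position, over lists, of the summit of the strongest peak in the region. RefSeq promoters were found for 7 of the 9 genes, and none was used for Maf or Bhlhe40. The bHLH repressor gene Bhlhe41 showed the largest promoter difference between HSCs and BMDMs, and its promoter, chr6:145865371-145865670 on the minus strand, holds an E-box (CACGTG) that is printed in capitals. Pparg and Mitf each have an early promoter whose printed 300 bases lay under an H3K27ac peak in 34 of 35 lists, and a later start that had no peak of either mark in any of the 70 lists, so both are shown. They lie on the plus strand at chr6:115360894-115361193 and chr6:115421816-115422115 for Pparg and at chr6:97806808-97807107 and chr6:97991533-97991832 for Mitf.
Bhlhe41 promoter: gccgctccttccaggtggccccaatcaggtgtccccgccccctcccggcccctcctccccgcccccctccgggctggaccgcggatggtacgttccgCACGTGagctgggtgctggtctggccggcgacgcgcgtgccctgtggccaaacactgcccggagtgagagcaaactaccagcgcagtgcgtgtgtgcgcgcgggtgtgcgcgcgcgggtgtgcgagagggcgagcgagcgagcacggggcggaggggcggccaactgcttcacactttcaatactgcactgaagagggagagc
Pparg first promoter: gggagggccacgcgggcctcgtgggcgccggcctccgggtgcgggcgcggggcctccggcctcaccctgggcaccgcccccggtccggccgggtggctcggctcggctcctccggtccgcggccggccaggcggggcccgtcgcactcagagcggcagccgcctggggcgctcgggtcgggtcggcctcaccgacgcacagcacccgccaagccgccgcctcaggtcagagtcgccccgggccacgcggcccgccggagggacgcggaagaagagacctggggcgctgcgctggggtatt
Pparg later promoter with no peak: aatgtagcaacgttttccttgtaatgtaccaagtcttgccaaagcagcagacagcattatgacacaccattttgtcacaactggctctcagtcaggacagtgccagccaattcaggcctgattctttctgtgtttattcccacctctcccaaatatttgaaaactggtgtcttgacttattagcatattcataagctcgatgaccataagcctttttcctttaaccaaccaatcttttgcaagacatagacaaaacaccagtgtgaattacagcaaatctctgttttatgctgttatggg
Mitf first promoter: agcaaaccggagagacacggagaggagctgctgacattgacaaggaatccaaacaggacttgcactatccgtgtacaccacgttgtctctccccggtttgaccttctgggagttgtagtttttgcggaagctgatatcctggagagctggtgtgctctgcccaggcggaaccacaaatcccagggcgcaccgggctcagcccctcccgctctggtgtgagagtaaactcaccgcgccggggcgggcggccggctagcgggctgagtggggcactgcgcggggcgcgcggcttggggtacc
Mitf later promoter with no peak: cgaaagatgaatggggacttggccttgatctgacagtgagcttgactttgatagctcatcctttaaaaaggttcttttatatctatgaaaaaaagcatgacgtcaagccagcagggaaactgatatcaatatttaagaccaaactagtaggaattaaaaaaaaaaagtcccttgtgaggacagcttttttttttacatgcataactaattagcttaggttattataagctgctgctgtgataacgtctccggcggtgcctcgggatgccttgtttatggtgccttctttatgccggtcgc

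Both marked promoters were richer in CpG than the unmarked starts of the same genes. The first Pparg promoter had a GC content of 80.3% and a ratio of observed to expected CpG of 0.909, against 40.3% and 0.17 at the later start. The first Mitf promoter had 62.7% and 0.752, and the later one 40.0% and 0.673. Over all 32841 promoters the medians were 52.7% and 0.384.

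Zeb2 is shown because the 2 marks moved in opposite directions at its outer start. Its outer promoter, chr2:45117393-45117692, and an inner promoter, chr2:45110228-45110527, both on the minus strand, carried H3K27ac in all 35 lists. The inner one holds 2 AP-1 matches (TGANTCA), printed in capitals.
Zeb2 outer promoter: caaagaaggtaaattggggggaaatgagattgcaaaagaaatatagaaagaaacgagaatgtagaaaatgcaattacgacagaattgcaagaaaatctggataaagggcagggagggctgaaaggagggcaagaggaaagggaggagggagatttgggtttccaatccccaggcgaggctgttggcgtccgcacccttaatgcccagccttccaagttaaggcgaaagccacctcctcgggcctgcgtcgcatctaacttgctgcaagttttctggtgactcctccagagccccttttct
Zeb2 inner promoter: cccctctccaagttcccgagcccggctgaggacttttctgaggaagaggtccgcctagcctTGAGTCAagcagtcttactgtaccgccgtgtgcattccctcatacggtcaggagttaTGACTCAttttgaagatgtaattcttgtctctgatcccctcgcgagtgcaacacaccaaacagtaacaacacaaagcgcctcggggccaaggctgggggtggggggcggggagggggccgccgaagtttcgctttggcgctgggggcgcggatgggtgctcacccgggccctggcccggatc

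The distal windows come from the regions over 1 kb from any start that differed most between the cell types, the 3 largest gains with at most 1 a gene and the largest loss. Those of Pparg (chr6:115344637-115344836), Nr1h3 (chr2:91206608-91206807) and Mitf (chr6:97821236-97821435) were more acetylated in BMDMs, and that of Bhlhe40 (chr6:108695219-108695418) was more acetylated in HSCs. All are given on the plus strand.
Pparg distal window: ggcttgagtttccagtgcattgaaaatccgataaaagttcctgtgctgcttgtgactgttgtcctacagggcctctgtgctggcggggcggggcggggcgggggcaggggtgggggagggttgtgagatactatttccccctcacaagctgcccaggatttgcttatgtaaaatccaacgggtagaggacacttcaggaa
Nr1h3 distal window: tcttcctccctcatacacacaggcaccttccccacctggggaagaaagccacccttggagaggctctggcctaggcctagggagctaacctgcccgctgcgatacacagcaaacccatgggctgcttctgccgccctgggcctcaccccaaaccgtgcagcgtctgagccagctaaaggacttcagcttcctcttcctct
Mitf distal window: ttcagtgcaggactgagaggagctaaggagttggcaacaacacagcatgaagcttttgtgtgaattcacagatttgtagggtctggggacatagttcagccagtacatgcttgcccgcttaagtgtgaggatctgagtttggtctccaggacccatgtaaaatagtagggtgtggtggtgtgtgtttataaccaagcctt
Bhlhe40 distal window: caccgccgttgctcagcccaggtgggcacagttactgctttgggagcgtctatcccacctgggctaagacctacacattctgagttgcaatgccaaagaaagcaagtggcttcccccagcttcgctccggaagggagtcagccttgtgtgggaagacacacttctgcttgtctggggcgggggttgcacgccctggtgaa

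These 4 windows held none of the 8 motifs searched on both strands. The motifs were the E-box CACGTG, the M-box core CATGTG, the PU.1 motif GAGGAAGT, the C/EBP motifs TTGCGCAA and TTGCGTAA, the AP-1 motif TGANTCA, the interferon regulatory motif GAAANNGAA and the NF-kB motif GGGACTTTC. Over all promoters the shares with a match were 7.15%, 14.2%, 3.20%, 0.183%, 0.167%, 7.81%, 8.56% and 0.353%, in that order. Over 25135 distal windows of the same length as the 4 printed here they were 4.72%, 12.6%, 1.10%, 0.0358%, 0.0318%, 3.99%, 2.94% and 0.191%. Of 17 RefSeq promoters of these genes, 1 held the E-box (Bhlhe41) and 1 the AP-1 motif (Zeb2) and 0 any of the other 6. Of the 20 distal regions higher in BMDMs, 1 held the E-box (Zeb2) and 3 the M-box core (Pparg, Tfeb and Zeb2). A match describes the letters and does not show that a factor bound there.

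In HSCs and BMDMs alike, 8 of the 9 genes carried both marks at their promoter, and the step from HSC to BMDM raised H3K27ac at 7 of these 8. Promoter strength is given as a percentile: the gene's strongest promoter peak, by the -log10 p of the peak caller, ranked among all protein-coding genes of the same list, with 100 the strongest. Genes with no promoter peak shared the lowest rank, which fell between 10.3 and 29.6 in these lists. Differences are in normal scores of these ranks, where 1 unit is 1 SD of the ranks of all genes, and were tested with limma over all promoters of the mark, with Benjamini-Hochberg adjustment and a call at adjusted p under 0.05. Of 16981 promoters tested, 14.9% were called higher and 15.6% lower in unstimulated BMDMs than in HSCs, against 7 higher and 0 lower of the 8 tested here. In bulk lists, fewer cells that carry a mark and a weaker mark per cell cannot be told apart.

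**Figure D1:**
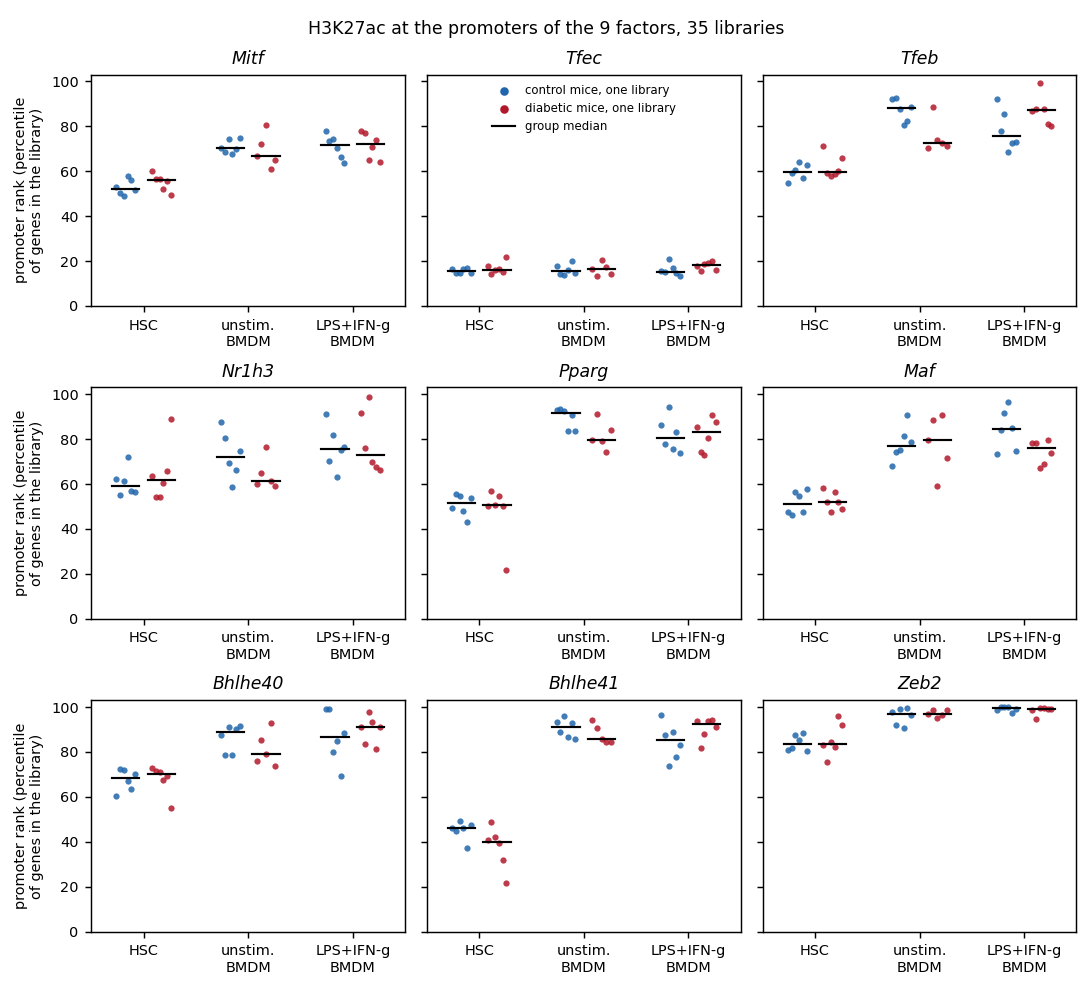
H3K27ac promoter rank percentile (vertical axis, 0 to 100) of each of the 9 genes in every library, by cell state and mouse group (blue control, red diabetic, black line the group median). Every unstimulated BMDM library lies above every HSC library for Mitf, Pparg, Maf, Bhlhe40 and Bhlhe41, and Tfec stays at the rank of genes with no promoter peak.

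Mitf, a regulator of lysosome genes and of osteoclast and pigment cell fate (chr6:97807052-98021349, plus strand), was marked in every H3K27ac list. Its promoter percentile was 49.1, 54.3 and 60.1 (lowest, median, highest) in 12 HSC libraries. It was 66.6, 72.0, 80.5, 61.0 and 65.0 in the 5 unstimulated BMDM libraries of diabetic mice and 67.6, 70.2 and 75.0 in the 6 of control mice. All 11 unstimulated BMDM libraries thus lay above all 12 HSC libraries. The difference was 0.43 ± 0.07 (SE; limma adjusted p = 1.2e-05). The signal sat on the first of 4 start clusters, whose peak had a median rank of 11594 in HSC lists and 7008 in BMDM lists, where rank 1 is the strongest peak of a list. The last cluster, at chr6:97991792-97991921, had no peak in any list.

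Tfeb, which drives lysosome formation and autophagy (chr17:47737030-47792419, plus strand), was likewise marked in every list. Its percentile was 54.6, 59.6 and 71.1 in HSCs. It was 70.5, 88.5, 73.8, 72.6 and 71.4 in diabetic and 80.7, 88.1 and 92.6 in control unstimulated BMDMs. Of 11 BMDM libraries, 10 lay above the highest HSC library and 1 diabetic library lay just under it. The difference was 0.66 ± 0.13 (limma adjusted p = 0.00016). In the same fit it was 0.92 ± 0.18 within control mice (adjusted p = 0.00041) and 0.40 ± 0.19 within diabetic mice (adjusted p = 0.16), and the mouse groups were not shown to differ (-0.53, 95% interval -1.04 to -0.02, limma adjusted p = 1.0). Tfeb has 7 start clusters, and the outer one had H3K27ac in all lists. At its inner starts H3K4me3 was in 9 to 11 of 11 unstimulated BMDM lists and in 2 to 7 of 12 HSC lists. The start at position 47782875, for instance, had an H3K27ac peak in 8 of 12 HSC lists and in 11 of 11 BMDM lists, and an H3K4me3 peak in 4 and 11. The H3K4me3 peaks at these inner starts had median ranks of 16893 to 42874 in unstimulated BMDM lists. H3K4me3 lists were shorter in HSCs (median 59726.5 peaks) than in unstimulated BMDMs (131406), so such peaks may be missing from short HSC lists.

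Tfec, the third MiT/TFE member (chr6:16833373-16898441, minus strand), differed from the other 8 genes. It had no promoter peak in any of the 70 lists, at any of its 3 start clusters, so it could not enter the promoter test. Its locus held at least 1 H3K27ac peak in 5 of 12 HSC, 6 of 11 unstimulated and 7 of 12 LPS+IFN-γ lists, and the best of these peaks was only number 18613 in its list. For H3K4me3 the counts were 2 of 12, 6 of 11 and 8 of 12, with a best rank of 17970. As lists with no peak here may simply be shallow, absence at Tfec means not detected at these depths.

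Nr1h3, the LXRα receptor that turns on cholesterol export (chr2:91184061-91202834, minus strand), was the member with a promoter peak whose H3K27ac promoter rank was not called. Its percentile was 54.1, 60.8 and 89.0 in HSCs. It was 59.9, 64.9, 76.5, 61.2 and 58.9 in diabetic and 58.7, 72.0 and 87.7 in control unstimulated BMDMs, and the groups overlapped over nearly their whole range. The difference was 0.16 ± 0.16 (95% interval -0.14 to 0.47, limma adjusted p = 0.45). The starts of Nr1h3 did not move as one: at the outer start, which shares its window with Acp2, the median rank of the H3K27ac peak went from 8470 to 10401, whereas at the middle cluster, 91194885-91195151, it went from 13874 to 7532. At the inner cluster it went from 63502.5, in the 10 HSC lists with a peak, to 19297.

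Pparg, the fatty acid receptor that macrophages of the lung alveolus need (chr6:115360951-115490399, plus strand), rose strongly. Its H3K27ac promoter percentile was 21.6, 50.6 and 56.8 in HSCs, the lowest being 1 diabetic library with no peak. It was 79.6, 91.4, 79.0, 74.4 and 84.2 in diabetic and 83.5, 91.5 and 93.6 in control unstimulated BMDMs, so every BMDM library lay far above every HSC library. The difference was 1.14 ± 0.11 (limma adjusted p = 1.0e-09). The first start cluster, the CpG-rich promoter printed above, carried the signal in HSCs and unstimulated BMDMs, with a median peak rank of 13107 in HSC and 3179 in BMDM lists. The start at 115383699 had an H3K27ac peak only in 3 of 12 LPS+IFN-γ lists. Those peaks were weak, with a median rank of 112526, past the median length of LPS+IFN-γ H3K27ac lists (111612 peaks). Shorter lists could not hold such peaks. The 2 starts at 115422066 and 115439975 had no peak in any list.

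Maf, whose product c-Maf limits self-renewal of macrophages (chr8:115682942-115707794, minus strand), had its 2 starts in a single cluster. Its percentile was 46.1, 51.9 and 58.4 in HSCs. It was 79.7, 88.3, 58.9, 90.8 and 71.8 in diabetic and 68.1, 76.9 and 90.7 in control unstimulated BMDMs. The groups did not overlap, although the lowest BMDM library, diabetic replicate 4, lay just above the highest HSC library. The difference was 0.76 ± 0.12 (limma adjusted p = 4.0e-06).

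The bHLH repressors, which hold down genes of other fates, both rose at the promoter. Bhlhe40 (chr6:108660629-108666925, plus strand) had percentiles of 55.0, 69.7 and 72.6 in HSCs. It had 76.0, 85.3, 79.2, 93.0 and 73.6 in diabetic and 78.8, 88.9 and 91.7 in control unstimulated BMDMs. The groups lay apart by a narrow gap, and the difference was 0.57 ± 0.16 (limma adjusted p = 0.0054). In the same fit it was 0.67 ± 0.22 within control mice (adjusted p = 0.031) and 0.47 ± 0.23 within diabetic mice (adjusted p = 0.17), and the mouse groups were not shown to differ (-0.21, 95% interval -0.83 to 0.41, limma adjusted p = 1.0).

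Bhlhe41 (chr6:145858243-145865558, minus strand) had the largest difference of the 8 genes. Its percentile was 21.6, 43.5 and 49.4 in HSCs, with 1 diabetic HSC library lacking a peak. It was 94.1, 90.4, 85.8, 84.6 and 84.4 in diabetic and 85.9, 91.0 and 96.1 in control unstimulated BMDMs. All unstimulated BMDM libraries lay far above all HSC libraries. The difference was 1.5 ± 0.11 (limma adjusted p = 1.1e-12). H3K4me3 at the same promoter was already high in HSCs, at 61.9, 80.0 and 95, and lay at 58.2, 72.2 and 86.6 in BMDMs (difference -0.15 ± 0.18, adjusted p = 0.59).

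Zeb2, a repressor that monocytes and tissue macrophages need (chr2:44983632-45117395, minus strand), had the highest median H3K27ac promoter percentile of the 9 genes in HSCs and rose further. Its H3K27ac percentile was 75.7, 83.7 and 96.0 in HSCs. It was 96.9, 98.8, 94.9, 96.4 and 98.5 in diabetic and 90.6, 97.1 and 99.6 in control unstimulated BMDMs. Of 11 BMDM libraries, 8 lay above the highest HSC library and 3 overlapped. The difference was 0.87 ± 0.17 (limma adjusted p = 0.00010).

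In all, 5 of the 8 promoters (Mitf, Pparg, Maf, Bhlhe40 and Bhlhe41) had every unstimulated BMDM library above every HSC library, against 1.85% of all promoters tested. The median difference of the 8 was 0.71, and that of all promoters was -0.0028. Without the 3 control BMDM libraries that went against their labels, the same 7 promoters were called, with differences from 0.42 ± 0.08 (Mitf) to 1.52 ± 0.12 (Bhlhe41), and that of Nr1h3 was 0.19 ± 0.17. Within control mice all 7 were called and within diabetic mice 5 in the fit over all libraries, and 7 in a fit of either mouse group alone. The exact two-sided permutation test on the percentiles of control mice, 6 against 6, gave p = 0.0022 for all 7, the smallest value that design allows (0.032 after adjustment over all promoters), and that of diabetic mice called 6, all but Zeb2 (exact permutation test, adjusted p = 0.083).

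Coverage of the whole locus gave another view. Locus enrichment is the share of the locus covered by peaks divided by the share of the genome covered by the same list, so 1 means no more than the genome at large. It was tested as log2(enrichment + 0.5), a scale that understates the change of weakly covered loci. Among all 21938 loci, 28.4% were called higher and 24.3% lower in unstimulated BMDMs, against 6 higher and 1 lower of the 9.

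**Figure D2:**
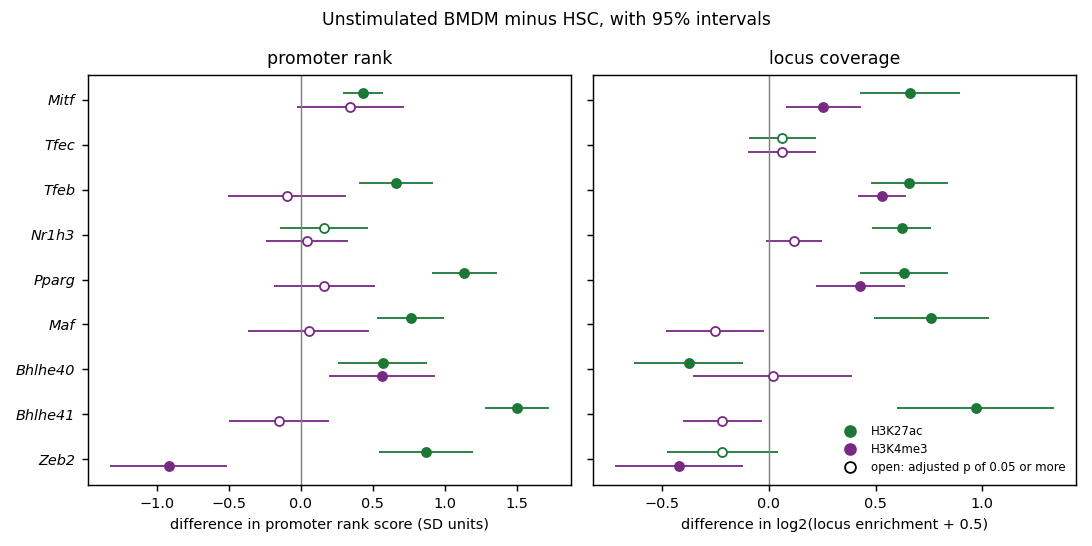
Difference between unstimulated BMDMs and HSCs (horizontal axis, points right of 0 are higher in BMDMs) with its 95% interval for promoter rank (normal score units) and locus coverage (log2 enrichment), H3K27ac in green and H3K4me3 in purple, open symbols not called. H3K27ac promoter ranks lie right of 0 for all 8 genes tested, with Nr1h3 not called, Bhlhe40 is right of 0 at the promoter and left of 0 over the locus, and Zeb2 is right of 0 for H3K27ac and left of 0 for H3K4me3 at the promoter.

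For Tfeb, the gene-dense locus of the list (6 other coding genes start in it), H3K27ac enrichment was 4.70, 7.24 and 8.22 in HSCs and 9.61, 10.7 and 15.2 in unstimulated BMDMs (log2 difference 0.66 ± 0.09, limma adjusted p = 6.1e-07). For Nr1h3 it was 2.39, 3.05 and 3.95 in HSCs and 4.13, 4.98 and 6.55 in BMDMs (0.62 ± 0.07, adjusted p = 1.6e-08). For these genes, and for Pparg (0.83 to 1.84 against 1.86 to 3.53) and Maf (0.19 to 1.24 against 1.40 to 2.87), no BMDM library overlapped an HSC library, which held for 0.346% of all loci. The Nr1h3 locus thus gained acetylated length while the promoter rank of the gene was not called. As 3 other coding genes, Acp2, Ddb2 and Madd, start in this locus, the change is not that of Nr1h3 alone.

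Bhlhe41 had the largest change in locus coverage, 0.97 ± 0.19 (limma adjusted p = 7.7e-05), from a median of 2.57 to 4.90 with 10 of 11 BMDM libraries above the highest HSC library. As 1 other coding gene, Rassf8, starts in this locus, the change is that of the locus and not of Bhlhe41 alone. Mitf was covered less than the genome at large in HSCs (median 0.295) and reached 0.776 in BMDMs (0.66 ± 0.12, adjusted p = 3.2e-05). Bhlhe40 went the other way. Its enrichment was 3.12, 4.38 and 5.26 in HSCs and 2.28, 3.01 and 6.51 in BMDMs, with 8 of 11 BMDM libraries below the lowest HSC library and 1 above the highest (-0.38 ± 0.13, adjusted p = 0.016). That highest value came from control unstimulated replicate 5, 1 of the 3 libraries against their labels and the shortest list of its group (54408 peaks). Without the 3 the difference was -0.45 ± 0.11 (adjusted p = 0.0016). In a fit of control mice alone, with that library in, it was -0.20 ± 0.17 and not called (adjusted p = 0.40), and in diabetic mice alone -0.55 ± 0.13 (adjusted p = 0.010). Zeb2 (-0.22 ± 0.13, adjusted p = 0.17) and Tfec (0.06 ± 0.08, adjusted p = 0.53) were not called.

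Single regions showed where in each locus the mark had moved. The 20000 strongest peaks of each list were merged, those found in at least 2 lists were kept, and each region was ranked in each list as the promoters were. The 9 loci held 75 H3K27ac regions, of which 47 lay over 1 kb from any start, and unstimulated BMDMs were higher in 39 and lower in 5. Among all 44611 H3K27ac regions the shares were 23.3% and 23.8%. Of the 47 distal regions, 20 were higher and 4 lower. Higher regions were counted in 8 of the 9 loci, while the 5 lower ones lay at Bhlhe40 (3) and Zeb2 (2), and Tfec had no region.

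**Figure D3:**
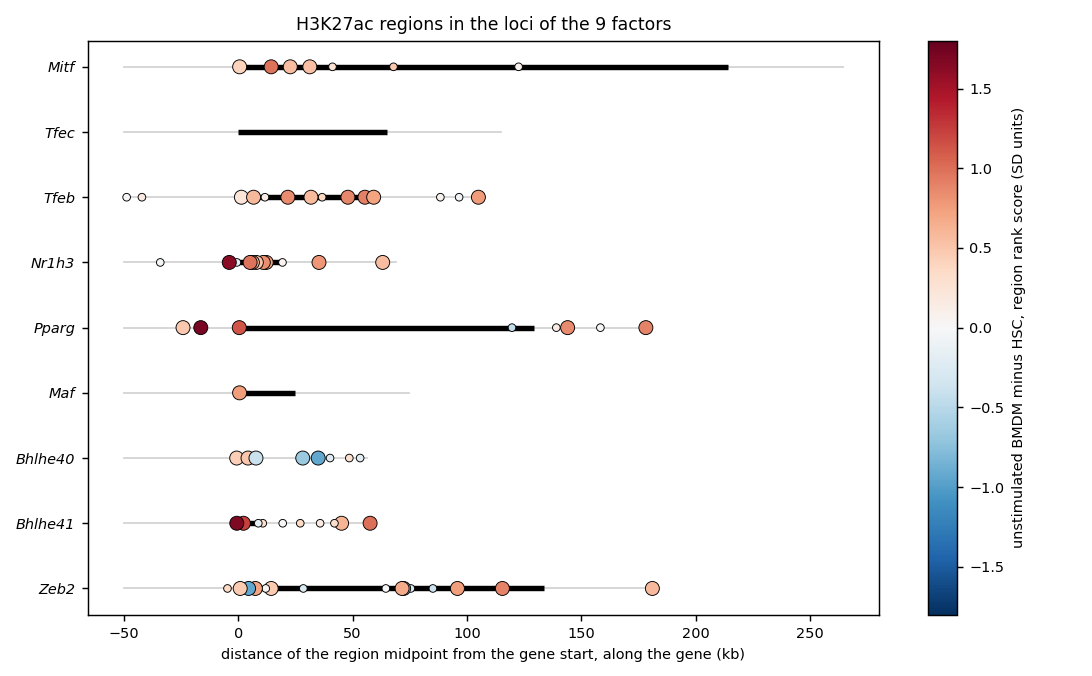
H3K27ac regions of each locus by distance from the gene start in kb (horizontal axis, thick black bar the gene body, grey line the 50 kb flanks), coloured by the difference between unstimulated BMDMs and HSCs in normal score units, with large circles for the called regions. The 3 regions downstream of Bhlhe40 are lower in BMDMs and the region 16.4 kb upstream of Pparg is higher.

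The region with the largest gain lay upstream of Pparg, at chr6:115344103-115345095, with its centre 16.4 kb before the gene start. It had a peak in 0 of 12 HSC lists and in 10 of 11 unstimulated BMDM lists. Its percentile among regions was 67.8, 69.6, 85.7, 74.6 and 74.8 in diabetic and 18.8, 76.0 and 81.9 in control unstimulated BMDMs, against 7.75, 10.8 and 23.5 in HSCs, where libraries with no peak share the lowest rank. Except for the 1 control library with no peak, the groups lay far apart, and the difference was 1.72 ± 0.21 (limma adjusted p = 3.2e-09).

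At Bhlhe41 the gain covered the gene itself. The promoter region chr6:145865013-145867332 went from 22.4, 51.5 and 71.1 in HSCs to 89.4, 94.9 and 98.2 in BMDMs (1.68 ± 0.13, adjusted p = 1.3e-14), and the region over the gene body, chr6:145861967-145864594, rose by 1.23 ± 0.13 (adjusted p = 7.8e-11). No distal region of this locus was called between the cell types. The other 2 regions that rose, 57.7 and 45.2 kb downstream (0.99 ± 0.15, adjusted p = 4.8e-07, and 0.61 ± 0.20, adjusted p = 0.0090), cover starts of the neighbouring gene Rassf8.

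At Nr1h3 8 of 11 regions rose, while the region over the outer start was not called (-0.20 ± 0.11, adjusted p = 0.15). The largest, chr2:91206350-91207119, was 3.9 kb upstream of the gene start and 3422 bp from the start of Acp2. It went from 9.06, 21.3 and 69.1 in HSCs to 65.5, 84.4 and 94.3 in BMDMs, with peaks in 6 of 12 and 11 of 11 lists (1.63 ± 0.17, adjusted p = 3.6e-11). An intronic region, chr2:91197098-91198144, had a peak in 1 of 12 HSC and 10 of 11 BMDM lists (0.98 ± 0.21, adjusted p = 0.00013). All 4 distal regions of Nr1h3 were called higher. These lists cannot tell whether they serve Nr1h3 or its neighbours Ddb2, Madd and Acp2, the last of which encodes a lysosomal phosphatase.

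Mitf gained within an intron. The region chr6:97820919-97822029, 14.4 kb into the gene, had a peak in 1 of 12 HSC and 10 of 11 BMDM lists, and its percentile went from 8.65, 12.0 and 23.5 to 20.7, 39.6 and 67.3 (0.97 ± 0.18, adjusted p = 1.6e-05). The groups overlapped by the lowest BMDM library, which had no peak. Of the 14 regions at Tfeb, 8 rose, and the largest difference was at chr17:47790833-47794059 at the 3′ end of the gene, from 11.6, 29.2 and 50.0 to 53.7, 68.2 and 76.9 (0.91 ± 0.14, adjusted p = 5.0e-07), with the groups apart. Maf had 1 region, over its promoter (0.75 ± 0.12, adjusted p = 1.2e-06), and none elsewhere in the gene or its flanks.

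At Bhlhe40 the promoter and the flank moved in opposite directions. The promoter region rose (0.45 ± 0.13, adjusted p = 0.0048), as did an exonic region 4.3 kb into the gene (0.50 ± 0.19, adjusted p = 0.024). The distal region chr6:108694706-108696497, 35 kb downstream of the start, had a peak in 11 of 12 HSC and 5 of 11 BMDM lists and went from 18.8, 52.4 and 73.5 to 8.27, 18.8 and 37.5 (-0.94 ± 0.21, adjusted p = 0.00033). The 2 regions between the gene and this one were also lower, with differences of -0.66 ± 0.22 (adjusted p = 0.011) and -0.40 ± 0.13 (adjusted p = 0.0076).

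Zeb2 had 7 regions that rose and 2 that fell, over 4 start clusters. The region over the inner promoter printed above, chr2:45108293-45111502, rose by 0.71 ± 0.14 (adjusted p = 2.6e-05). The exonic region chr2:45001545-45002225, 115.5 kb into the gene, went from 8.65, 15.2 and 41.2 to 22.6, 43.1 and 69.6, with peaks in 4 of 12 and 11 of 11 lists (0.89 ± 0.19, adjusted p = 0.00016). A region at the start of the antisense gene Zeb2os, chr2:45112523-45113160, between the outer and inner promoters, had a peak in 12 of 12 HSC and 4 of 11 BMDM lists (-0.94 ± 0.21, adjusted p = 0.00027). Neighbouring intronic regions also went different ways: chr2:45045363-45046123 rose by 0.68 ± 0.19 (adjusted p = 0.0031) and chr2:45044850-45045276 fell by 0.76 ± 0.21 on the score scale (adjusted p = 0.0020).

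For H3K4me3, 2 of the 8 promoters were called between the cell types, and the standard errors were larger than for H3K27ac at all but Nr1h3 (whether the marks differed was not tested). Of 17255 promoters tested, 7.93% were called higher and 7.09% lower in unstimulated BMDMs, and 1 of the 8 was called in each direction, Bhlhe40 higher and Zeb2 lower. The other 6 promoters differed by -0.15 to 0.34 (median of the 8, 0.05, and of all promoters, 0.03), and the groups overlapped for all of them.

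**Figure D4:**
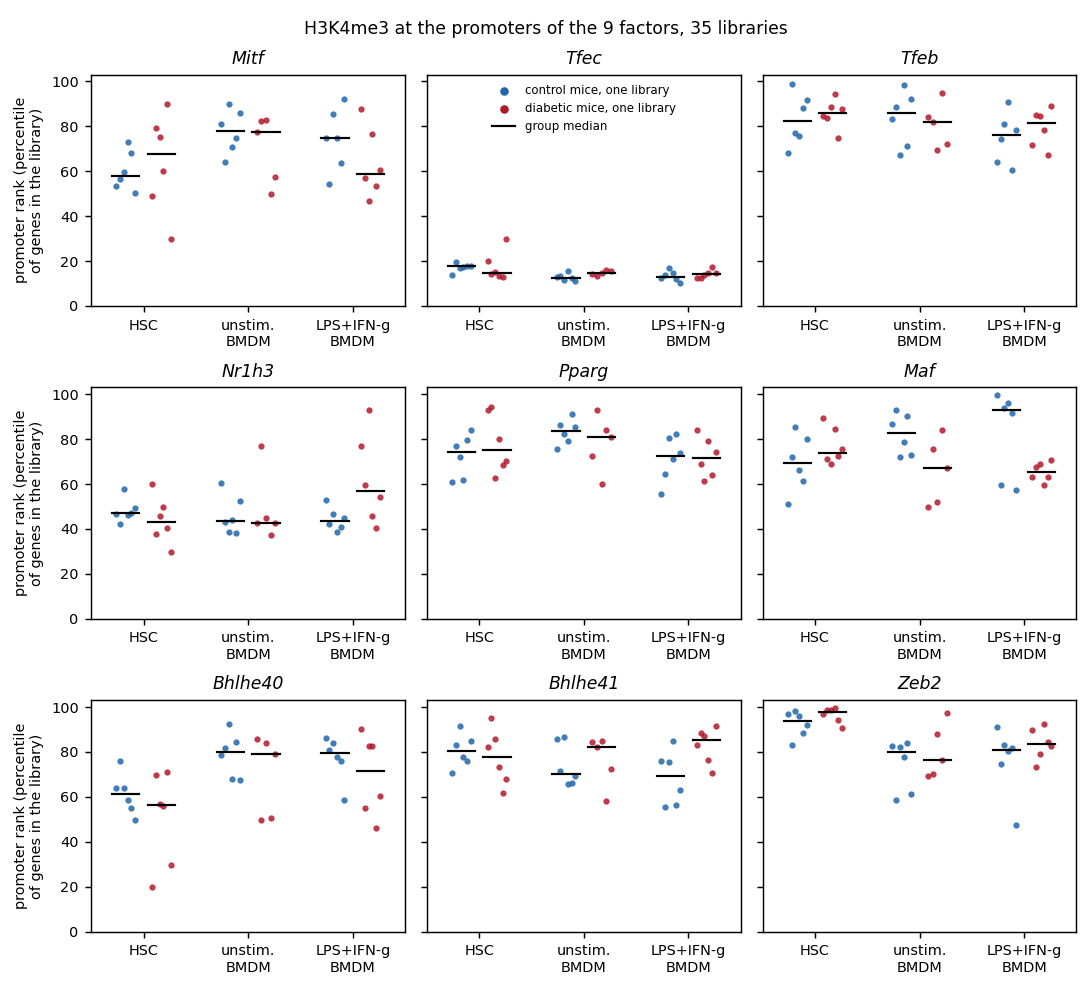
H3K4me3 promoter rank percentile (vertical axis, 0 to 100) of each of the 9 genes in every library, by cell state and mouse group (blue control, red diabetic, black line the group median). HSC and BMDM libraries overlap for all genes. For Zeb2 8 of 11 unstimulated BMDM libraries lie below the lowest HSC library.

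At Zeb2 the H3K4me3 percentile was 82.9, 96.3 and 99.4 in HSCs. It was 69.4, 70.4, 88.0, 76.3 and 97.5 in diabetic and 58.6, 79.9 and 84.2 in control unstimulated BMDMs. Of 11 BMDM libraries, 8 lay below the lowest HSC library and 3 within the HSC range. The difference was -0.92 ± 0.21 (limma adjusted p = 0.0037), and it was -0.85 within control mice (adjusted p = 0.071) and -0.99 within diabetic mice (adjusted p = 0.10). At the outer start, position 45117395, the median rank of the H3K4me3 peak went from 911.5 in HSC lists to 9482 in BMDM lists, while the median rank of the H3K27ac peak went from 5596.5 to 2432. The H3K4me3 region over this start, chr2:45115559-45117681, went from 91.7, 98.0 and 99.7 to 74.6, 79.6 and 92.8 (-1.14 ± 0.17, adjusted p = 1.6e-05). The H3K27ac region over it, chr2:45115246-45117786, is somewhat longer and rose by 0.47 ± 0.14 (adjusted p = 0.0043). The 2 marks thus moved in opposite directions in overlapping regions.

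At Bhlhe40 the H3K4me3 percentile was 19.9, 57.9 and 75.8 in HSCs. It was 85.8, 49.8, 83.9, 50.6 and 79.1 in diabetic and 67.7, 80.2 and 92.4 in control unstimulated BMDMs, with 7 of 11 above the highest HSC library (0.56 ± 0.19, adjusted p = 0.034). This call was lost without any of 8 single libraries, with an adjusted p of up to 0.077 (limma, without diabetic HSC replicate 1), and without the 3 H3K4me3 libraries that share a label with those against theirs it was 0.052.

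For H3K4me3 locus coverage 15.8% of all loci were called higher and 21.2% lower, against 3 higher and 1 lower of the 9. With a flank of 20 kb the split was 2 higher and 3 lower, and in control mice alone 2 higher and 4 lower. Tfeb rose from 4.77, 5.60 and 7.59 in HSCs to 7.22, 8.10 and 9.67 in unstimulated BMDMs (0.53 ± 0.06, adjusted p = 1.5e-07). Pparg rose by 0.43 ± 0.11 (adjusted p = 0.0023) and Mitf by 0.26 ± 0.09 (adjusted p = 0.024), and Zeb2 fell by 0.42 ± 0.15 on the log2 scale (adjusted p = 0.032). The call of Zeb2 was lost without any of 6 single libraries (adjusted p of up to 0.062, without diabetic HSC replicate 1). H3K4me3 lists were shorter in HSCs (median 59726.5 peaks) than in unstimulated BMDMs (131406), and with list length as a covariate 1 of the 9 loci was called.

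Of 51 H3K4me3 regions in the 9 loci, 7 were higher and 3 lower in BMDMs, against 5.45% and 6.15% of all 44635. The largest gain was at an inner start of Tfeb, where chr17:47758575-47760771 had a peak in 6 of 12 HSC and 11 of 11 BMDM lists and went from 18.7, 37.9 and 61.6 to 59.7, 73.9 and 96.4 (1.08 ± 0.20, adjusted p = 0.00028). A region downstream of Pparg (0.81 ± 0.22, adjusted p = 0.010) and an exonic one of Zeb2 (0.79 ± 0.22, adjusted p = 0.014) followed. The next Tfeb start, chr17:47762219-47763713, had a peak in 2 of 12 and 11 of 11 lists (0.74 ± 0.22, adjusted p = 0.019). As H3K4me3 lists were shorter in HSCs, weak peaks may be missing from them, which bears on these peak counts. Among the 3 that fell, the outer start of Nr1h3, chr2:91202395-91203315, went from 22.0, 45.9 and 76.7 to 3.43, 12.1 and 78.7 (-0.88 ± 0.26, adjusted p = 0.020), with the groups overlapping, and its call was lost without diabetic unstimulated replicate 4 (limma adjusted p = 0.051).

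The next comparison asked what LPS+IFN-γ did to these genes in BMDMs. In diabetic BMDMs 2.3% of all H3K27ac promoters were called and 0 of the 8 (limma; 2 at an unadjusted p under 0.05, and 0 by the exact permutation test). Those 2 were Tfeb, which went from 70.5, 88.5, 73.8, 72.6 and 71.4 unstimulated to 80.0, 87.1 and 99.3 (0.55 ± 0.19, adjusted p = 0.10), and Nr1h3, which went from 59.9, 64.9, 76.5, 61.2 and 58.9 to 66.3, 72.9 and 98.7 (0.57 ± 0.23, adjusted p = 0.16). Both overlapped with their unstimulated libraries. In control BMDMs 0.0% of all promoters were called and 0 of the 8 (2 at an unadjusted p under 0.05, Pparg and Zeb2). For Zeb2 the control difference was 0.63 ± 0.23 (adjusted p = 0.92), and 0.90 ± 0.25 without the 3 libraries against their labels (adjusted p = 0.10). The response of Tfeb in diabetic less that in control mice was 0.90 ± 0.26, with an adjusted p of 0.66.

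Locus coverage rose with LPS+IFN-γ in diabetic BMDMs at 1 of the 9 genes, Bhlhe40, against 2.01% of all loci. Its H3K27ac enrichment was 2.76, 2.43, 3.11, 2.85 and 2.28 in unstimulated and 3.48, 5.22 and 7.02 (lowest, median and highest of 6) in LPS+IFN-γ BMDMs of diabetic mice. The 2 groups did not overlap, and the log2 difference was 0.84 ± 0.19 (limma adjusted p = 0.012). In control mice it was 2.92, 3.16 and 6.51 unstimulated and 2.51, 4.19 and 6.35 after LPS+IFN-γ (0.14 ± 0.18, adjusted p = 1.0), where 0.0% of loci and 0 of the 9 were called, also at an unadjusted p under 0.05. The highest unstimulated and the lowest stimulated control value both came from libraries labelled replicate 5, each against its label. The unstimulated one was also the shortest list of its group. Without the 3 libraries against their labels the control difference was 0.41 ± 0.17 (adjusted p = 0.35). The response in diabetic less that in control mice, 0.70 ± 0.26, had an adjusted p of 0.90. With the replicate number as a block the diabetic difference was 0.82 ± 0.21 and not called (adjusted p = 0.059). Bhlhe41 (0.61 ± 0.27, adjusted p = 0.19) and Zeb2 (0.40 ± 0.19, adjusted p = 0.23) were not called in diabetic mice.

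**Figure D5:**
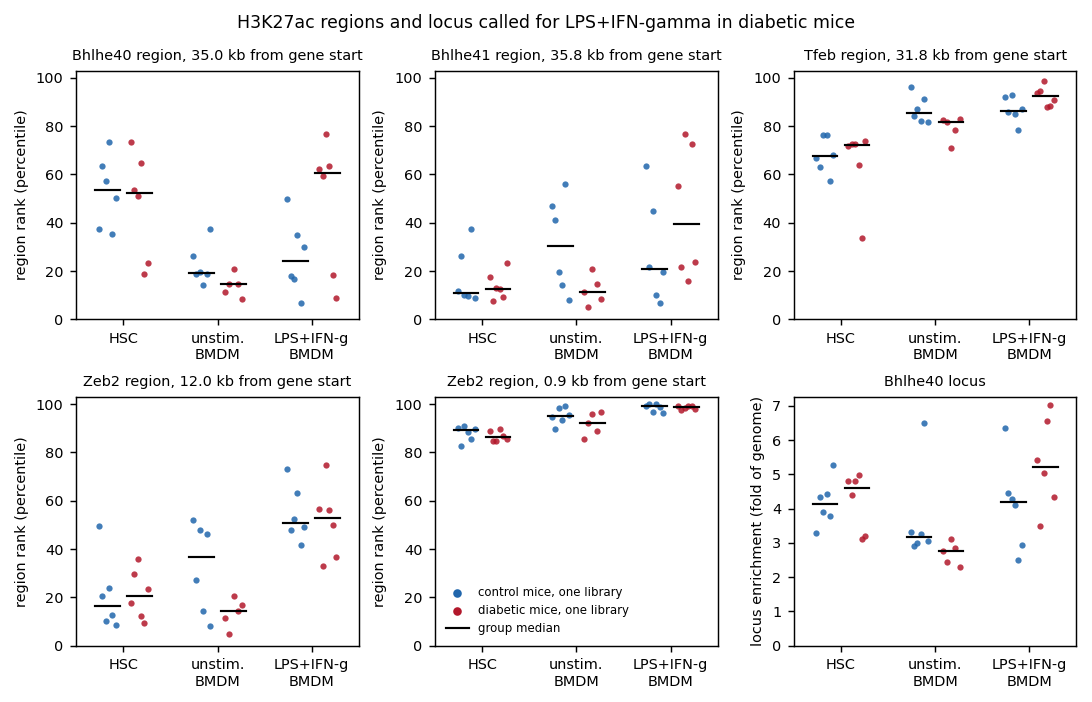
Values of every H3K27ac library, HSC, unstimulated BMDM and BMDM with LPS+IFN-γ, in control (blue) and diabetic (red) mice, with black lines for group medians, for the 5 H3K27ac regions called in diabetic mice (vertical axis, percentile among regions) and for H3K27ac enrichment of the Bhlhe40 locus. In diabetic mice the stimulated libraries lie apart from the unstimulated ones for both Zeb2 regions, the Tfeb region and the Bhlhe40 locus.

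Among regions, 5 of 75 rose with LPS+IFN-γ in diabetic BMDMs and 0 fell, against 2.99% of all regions that rose. Zeb2 held 2. The region over its outer start, chr2:45115246-45117786, was at 85.7, 92.3, 95.9, 88.8 and 96.6 in unstimulated and 97.6, 98.7 and 99.3 in stimulated diabetic BMDMs, so all 6 stimulated libraries lay above all 5 unstimulated ones (0.79 ± 0.20, limma adjusted p = 0.015). In control mice it was 89.9, 95.2 and 99.4 unstimulated and 96.3, 99.1 and 99.9 stimulated (0.65 ± 0.19, adjusted p = 0.53). Without the 3 control libraries against their labels the control difference was 0.85 ± 0.21 (adjusted p = 0.028), the sole one of the 75 regions under the threshold, against 1.07% of all regions that rose in that fit. After stimulation the outer Zeb2 promoter lay in the top few percent of regions in every library of either mouse group. It lost its call in diabetic mice without 1 library, diabetic unstimulated replicate 1 (adjusted p = 0.052).

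The second Zeb2 region, chr2:45104872-45105832, lay 12.0 kb into the gene and 4244 bp from an inner start. It was at 11.4, 4.92, 20.7, 14.4 and 16.7 in unstimulated and 33.2, 53.0 and 74.9 in stimulated diabetic BMDMs, with peaks in 6 of 6 stimulated lists and the groups apart (1.18 ± 0.28, adjusted p = 0.011). The unstimulated values 11.4, 4.92, 20.7 and 14.4 equal the lowest ranks that libraries with no peak share. The size of the difference thus depends partly on list length. The region kept its call without any single library. In control mice it was 8.13, 36.7 and 52.2 against 41.6, 50.8 and 73.4 (0.65 ± 0.27, adjusted p = 0.73). Since HSCs were at 8.65, 19 and 49.5, this region did not differ between HSCs and unstimulated BMDMs by more than their spread (0.03 ± 0.20).

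The Tfeb region chr17:47765209-47772517 covers an inner start. It was at 82.6, 81.7, 70.8, 78.6 and 83 in unstimulated and 88.1, 92.4 and 98.8 in stimulated diabetic BMDMs, with no overlap (0.68 ± 0.18, adjusted p = 0.020). In control mice, at 81.8, 85.6 and 96.3 against 78.2, 86.3 and 92.9, it was -0.04 ± 0.17. The call was lost without diabetic LPS+IFN-γ replicate 3 (difference 0.54, adjusted p = 0.094) and without diabetic unstimulated replicate 4 (adjusted p = 0.059).

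The other 2 regions lay downstream of the repressor genes. That of Bhlhe40, chr6:108694706-108696497, is the region that was lower in unstimulated BMDMs than in HSCs. It was at 11.4, 14.6, 20.7, 14.4 and 8.27 in unstimulated and 8.75, 60.7 and 76.6 in stimulated diabetic BMDMs, with peaks in 4 of 6 stimulated lists (1.00 ± 0.31, adjusted p = 0.049), while HSCs were at 18.8, 52.4 and 73.5. The groups overlapped, as 2 stimulated libraries had no peak, and in control mice the difference was 0.06 ± 0.30. The call was lost without any of 22 single libraries (adjusted p of up to 0.17, without diabetic LPS+IFN-γ replicate 3). That of Bhlhe41, chr6:145828927-145830553, 35.8 kb downstream and 8983 bp from the start of Rassf8, was at 11.4, 4.92, 20.7, 14.4 and 8.27 against 15.7, 39.6 and 76.7 (1.05 ± 0.32, adjusted p = 0.042), also with overlap, and differed by -0.12 ± 0.30 in control mice. Its call was lost without any of 7 single libraries (adjusted p of up to 0.15, again without diabetic LPS+IFN-γ replicate 3). The unstimulated diabetic values 11.4, 20.7, 14.4 and 8.27 were the same at both regions, as libraries with no peak share the lowest rank of their list. That rank depends on list length, so both differences are partly distances from a shared lowest rank and not from a measured level.

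The region upstream of Pparg that was higher in BMDMs than in HSCs lay lower after LPS+IFN-γ in diabetic mice, at 15.7, 48.9 and 60.8 against 67.8 to 85.7, with all 6 stimulated libraries below all 5 unstimulated ones. Its difference of -0.93 ± 0.30 had an adjusted p of 0.059, and 0.032 without the 3 control libraries, when 2.08% of all regions were called lower. In control mice it was at 8.39, 62.0 and 76.2 against 18.8, 76.0 and 81.9 (-0.29 ± 0.29, adjusted p = 0.96, and -0.81 ± 0.30, adjusted p = 0.19, without the 3). In control BMDMs 0.0% of H3K27ac regions and 0 of 75 were called with all libraries in.

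H3K4me3 gave 0.0% of promoters, loci and regions called for LPS+IFN-γ in either mouse group, and 0 at these genes (limma; at an unadjusted p under 0.05, 0 of 8 promoters in either group and 1 of 9 loci, Nr1h3, in diabetic mice). The largest promoter differences were -0.40 (Pparg) and 0.35 (Maf) in control and 0.39 (Nr1h3) in diabetic BMDMs.

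Control and diabetic mice were not shown to differ at any of the 9 genes in any of the 3 cell states, which is the comparison the study was built on. For H3K27ac promoters 0.0% of all promoters and 0 of 24 gene and cell state pairs were called (limma; 4 pairs at an unadjusted p under 0.05), with differences from -0.46 to 0.44. For H3K4me3 promoters it was 0.0% and 0 of 24 (2 at an unadjusted p under 0.05), with differences from -0.93 (Maf with LPS+IFN-γ, adjusted p = 0.86) to 0.51. Standard errors of 0.10 to 0.24 and 0.20 to 0.31 mean that differences of this size in either direction were not resolved.

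The largest of these, Maf with LPS+IFN-γ, shows the spread. Its H3K4me3 percentile was 57.5, 92.8 and 99.8 in control and 59.5, 65.4 and 70.9 in diabetic mice, so the diabetic libraries lay within the control range. For loci, 0 of 27 pairs were called in H3K27ac (2 at an unadjusted p under 0.05), against 0.0% of all loci in HSCs, 0.0% in unstimulated and 0.00456% in LPS+IFN-γ BMDMs. In H3K4me3 0 of 27 were called (4 at an unadjusted p under 0.05), against 0.0365% in HSCs and 0.0% in both BMDM states. The largest was Bhlhe40 in HSCs, with an enrichment of 2.41, 3.48 and 4.69 in control and 0.00, 2.25 and 2.74 in diabetic mice (-0.89, adjusted p = 0.19), where the 0 came from the shortest of all lists. In unstimulated BMDMs the same locus was at 1.92, 2.33 and 2.81 in control and 2.2, 2.67 and 2.94 in diabetic mice, so the step from HSC was -0.48 ± 0.26 in control and 0.51 ± 0.27 in diabetic mice, with the difference of the 2 steps not called (0.99 ± 0.38, limma adjusted p = 0.38). None of the 75 H3K27ac and 51 H3K4me3 regions was called in any cell state, against 0.0% of all regions (lowest adjusted p 0.80 and 0.72).

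Related genes are read against the 14.9% of all promoters higher and 15.6% lower in unstimulated BMDMs. The lists of related genes were chosen with earlier results of these data known. Of 16 other myeloid transcription factors, H3K27ac promoter rank rose in 12 and fell in 0 from HSC to unstimulated BMDM, with a median of 0.62. The largest were Atf3, a stress-induced repressor (1.34, adjusted p = 3.6e-07), Ets2 (1.30, adjusted p = 1.5e-05), Spi1, which encodes the myeloid master factor PU.1 (1.04, adjusted p = 0.00093), and Id3 (1.02, adjusted p = 5.4e-10). Of 15 partners and paralogs 4 rose and 3 fell (median 0.09), close to those shares. Id2 rose by 1.47, whereas Nr1h2, which encodes the second LXR, fell by 0.71 on the score scale and the small Maf gene Mafk by 0.69.

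Target genes of these factors were mixed. Of 13 tested LXR and PPAR targets 5 rose and 1 fell (median 0.03), with Fabp4, a fatty acid carrier and PPAR target, at 0.94 (adjusted p = 1.1e-07), Fabp5 at 0.53, the cholesterol exporter Abca1 at 0.42 and the transporter Abcg2 at -0.58. Of 15 lysosome targets of MiT/TFE factors 4 rose and 1 fell (median 0.28), with Gpnmb at 0.94 (adjusted p = 1.6e-05), Lamp1 of the lysosome membrane at 0.68, the hexosaminidase gene Hexa at 0.61 and Flcn, a regulator of these factors, at -0.79.

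Of the markers of other blood lineages, only the erythroid list was called throughout in the cell type comparison. Of all promoters, 14.9% were called higher and 15.6% lower in unstimulated BMDMs. The mean H3K27ac promoter percentile of 6 erythroid markers was 45.3 to 67.7 in HSC and 29.2 to 35.5 in unstimulated BMDM libraries, all 6 fell, and Alas2 had no promoter peak in any unstimulated BMDM list. Of 5 tested neutrophil markers 1 fell (Mpo) and 0 rose, with list means of 25.3 to 41.1 and 21.3 to 34.9. Of 4 megakaryocyte markers 1 rose (Pf4) and 1 fell (Gp9), with means of 39.2 to 48.3 and 33.0 to 51.2, and of 5 tested lymphoid markers 0 were called, with means of 21.6 to 41.8 and 16.6 to 34.3. The 10 macrophage markers had means of 26.7 to 40.0 in HSC and 34.0 to 59.6 in unstimulated BMDM libraries, and the stem and progenitor markers 52.6 to 57.0 and 33.5 to 50.3. The part of these other cells in the differences of the 9 genes was not tested.

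In H3K27ac, the promoter with the pattern most like that of Pparg among 16957 compared was Bhlhe41 (Pearson r = 0.885 over the 35 libraries), followed by Id3 (0.874) and Lamc1 (0.871). For Bhlhe41 it was Pmp22 (0.897), then Plxna2 (0.886) and Pparg. The closest were Smad6 for Mitf (0.873), Lasp1 for Tfeb (0.892), Cuedc2 for Nr1h3 (0.882), Apbb2 for Maf (0.830), and Olfr368 for both Bhlhe40 (0.775) and Zeb2 (0.890). These correlations describe libraries that share their cell type differences and list lengths.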

How the data were processed

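ChIP-seq for H3K27ac (antibody ab4729) and H3K4me3 (ab8580), with 50-bp single reads on an Illumina HiSeq, had been done on 106 samples, of which 70 had a peak list and 36 were inputs with no list. The submitters' processing notes name Bowtie2 2.2.6, Trim Galore 0.3.3, cutadapt 1.8, FastQC 0.11.3, Picard 2.18.14 and 2.19.2, bedtools 2.19.1 and MACS2 2.2.7.1, and the builds GRCm38 and mm10, with no role or order. Peaks were called per sample against an input, with no pooling, and the lowest -log10 q was 1.30.

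The deposited lists give for each peak a score (10 times the -log10 q), the fold enrichment at the summit as a ratio, and the -log10 p and -log10 q values made by the authors with the peak caller. The -log10 p served only to rank peaks within a list, since read depth was unknown and these values grow with depth. Lines that repeated a peak for another summit were merged, leaving 7828714 of 9511856, on 21 chromosomes.

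Genes were the 21938 protein-coding genes of GENCODE M21 with 93513 start sites. Promoter scores were kept with a peak in at least 5 of 35 lists of the mark, loci were tested with no filter and a pseudocount of 0.5, and regions came from the top 20000 peaks of each list found in at least 2 lists. All libraries of a mark entered 1 limma fit (limma 3.58.1, R 4.3.3) of 6 groups with Benjamini-Hochberg adjustment over all features and a threshold of 0.05. The cell type contrast averaged control and diabetic mice. The fits were tested on simulated data. Permutation tests were run in R, and scipy 1.17.1 gave the ranks and normal scores. Samples were grouped by their labels.

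The members and lists of related genes were chosen with earlier results of these data known. All 9 genes were named, and of each related list at most 4 called genes with the largest absolute difference. A few genes of these lists are not reported here by name. Alternatives were other promoter windows, flanks, pseudocounts, filters, peak limits and overlaps, ranking by fold enrichment, list length as a covariate, a replicate block, fewer groups, and leaving out libraries. Inputs were not analysed here.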

Additional observations from a re-analysis of the deposited data

Results flagged for a closer look

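In 204 groups of 5 or 6 libraries (9 genes, promoter percentile and locus enrichment, both marks), 21 had 1 library whose gap to the nearest other took a larger share of the group's range than the 95% critical value of Dixon's test. Chance gives about 1 in 20, or 10.2 of 204.

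For H3K27ac promoters, diabetic HSC replicate 6 stood apart at 3 genes, with a percentile of 89.0 at Nr1h3 (nearest other library 65.9), 21.6 at Pparg, where it had no peak (nearest 50.0), and 55.0 at Bhlhe40 (nearest 67.3). Tfeb was at 88.5 in diabetic unstimulated BMDM replicate 2 (nearest 73.8), and Zeb2 at 94.6 in diabetic LPS+IFN-γ replicate 2 (nearest 98.7).

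For H3K27ac locus enrichment, control unstimulated BMDM replicate 5, a library against its label, was highest of its group at 4 genes, with 15.2 at Tfeb (nearest 10.8), 2.87 at Maf (1.94), 6.51 at Bhlhe40 (3.32) and 4.52 at Zeb2 (2.41). This library also had the shortest list of its group, with 54408 peaks. Mitf was at 1.79 in diabetic LPS+IFN-γ replicate 3 (nearest 1.08). Tfec was at 0.0982 in diabetic HSC replicate 2 and 0.0536 in diabetic unstimulated BMDM replicate 2, and at 0.0 in the other libraries of both groups.

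For H3K4me3 promoters, Nr1h3 was at 76.8 in diabetic unstimulated BMDM replicate 2 (nearest 45.1) and Bhlhe40 at 58.7 in control LPS+IFN-γ replicate 6 (nearest 76.1). For H3K4me3 locus enrichment, diabetic HSC replicate 6, the shortest list with 13730 peaks, was at 0.0 at Bhlhe40 (nearest 1.97) and 5.84 at Zeb2 (nearest 2.95). Diabetic HSC replicate 1 was at 3.83 at Nr1h3 (nearest 2.84) and 2.97 at Maf (nearest 1.34). Tfeb was at 9.06 in control unstimulated BMDM replicate 2 (nearest 7.78). Tfec was at 0.297 in control HSC replicate 2 and 0.0571 in diabetic HSC replicate 5, and at 0.0 in the other libraries of both groups.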

How the results depend on the processing

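The 7 H3K27ac promoters and 7 H3K27ac loci called between HSCs and unstimulated BMDMs stayed 7, and 7 to 8 for loci, without any 1 library, and no called value changed sign in any setting. Of 20 such gene values over both marks, 11 were called in every setting. The cause of the changes given here was not tested. With only the 10000 strongest peaks, regions were built anew, so their counts are out of another set than the 75 and 51 regions above. In that set 20 H3K27ac regions were called, against 44, and 5 H3K4me3 regions, against 10. With the same peaks the H3K4me3 loci called fell from 4 to 0, and the Bhlhe40 locus call with LPS+IFN-γ in diabetic mice from 1 to 0. A flank of 20 kb also gave 0 for the last, and a fit of only the groups compared gave 2. In control or diabetic mice alone, where fewer samples entered, 29 and 29 H3K27ac regions were called, 4 and 1 H3K4me3 regions, 0 and 0 H3K4me3 promoters, and 1 H3K4me3 locus in diabetic mice. The 2 H3K4me3 promoters became 1 with a window of 500 bp, with ranks past the 8000 strongest tied, and with list length as a covariate, and 0 by the exact permutation test in control or diabetic mice. List length as a covariate left 1 H3K4me3 locus and 4 regions. Without the 3 control BMDM libraries against their labels, or those of the same label in H3K4me3, 1 H3K4me3 promoter and 6 regions were called, and 1 H3K27ac region with LPS+IFN-γ in control mice in place of 0. Leaving out 4 H3K4me3 libraries of unclear scaling (control LPS+IFN-γ replicate 6, control unstimulated replicate 6 and diabetic LPS+IFN-γ replicates 1 and 2) moved no count by over 1.5 times. Peaks with -log10 q of at least 3, with regions also built anew, gave 3 H3K27ac regions called with LPS+IFN-γ in diabetic mice in place of 5.

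Without 1 library at a time, counts ranged from 2 to 7 for those regions (2 without diabetic LPS+IFN-γ replicate 3), from 1 to 2 for the Bhlhe40 locus (2 loci without diabetic HSC replicate 6), from 40 to 45 for H3K27ac regions, and for H3K4me3 from 1 to 2 promoters, 3 to 5 loci and 7 to 10 regions. Same-numbered libraries correlated at -0.26 to 0.35 over all pairs. Between unstimulated and LPS+IFN-γ H3K27ac libraries of diabetic mice they correlated at 0.039 to 0.35, and 4 of 5 pairs were above 0.1. The medians with stimulated libraries of other numbers were -0.12 to 0.0036 there. The cut of 0.1 was a choice, and whether the numbers pair the samples was not settled. The main fits did not pair them. With the replicate number as a block, 3 of those 5 regions and 0 loci were called with LPS+IFN-γ in diabetic mice, and the other counts stayed within 1.5 times. Read depth was unknown, so weak peaks may be missing from short lists.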

Other observations

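Acetylated length was also read in kilobases, with no test. Median H3K27ac coverage of the Tfeb locus was 23.3 kb in HSCs, 37.7 kb in unstimulated and 39.1 kb in LPS+IFN-γ BMDMs. At Bhlhe41 it was 5.46, 11.6 and 15.2 kb, at Nr1h3 7.47, 13.7 and 14.1 kb, at Pparg 6.64, 11.2 and 11.7 kb, at Maf 2.34, 4.17 and 5.09 kb, and at Mitf 1.82, 4.35 and 5.95 kb. Tfec had 0.0, 0.285 and 0.289 kb. Bhlhe40, at 8.85, 7.71 and 10.6 kb, and Zeb2, at 11.8, 10.6 and 13.0 kb, were lowest in unstimulated BMDMs. These lengths move with how much was called in each list.

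In the H3K27ac locus coverage of related genes between HSCs and unstimulated BMDMs, where 28.4% of all loci were called higher and 24.3% lower, 9 of 16 other myeloid transcription factors rose and 2 fell, and 5 of 10 macrophage markers rose and 0 fell. Of 10 stem and progenitor markers 9 fell and 0 rose. Partners and paralogs (5 rose and 4 fell of 15), LXR and PPAR targets (5 and 4 of 14) and MiT/TFE targets (7 and 4 of 15) had calls in both directions, the first 2 lists at shares near those of all loci.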
